A study of Rattus norvegicus with 9 samples.

Results

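The FOXO transcription factors and the kinases of the phosphatidylinositol 3-kinase (PI3K) and protein kinase B (AKT) pathway were followed in rat skeletal muscle during prolonged fasting. The members are 8 genes, the forkhead factors Foxo1, Foxo3 and Foxo4, the AKT kinases Akt1 and Akt2, the kinase Gsk3b, and the PI3K subunits Pik3r1 and Pik3ca. Of these, 7 have a probe set that the array's annotation gives a single symbol, among 14506 such genes and 29215 probe sets in the series. Each of the 7 has 1 such probe set. Pik3ca, the catalytic alpha subunit, has none in the annotation used here and was not analysed here.

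RNA came from the tibialis anterior, a mostly fast-twitch muscle of the lower leg, of 9 male Sprague Dawley rats, with 1 Affymetrix Rat Gene 1.0 ST array per rat. The 3 groups of 3 rats were Fed, fasted until phase 2 (P2), in which the animal lives mainly on lipid and spares its protein, and fasted until phase 3 (P3), in which protein is mobilised. Rats were allotted to the groups at random, and the rate of body mass loss told when a fasting rat had reached its phase. P2 and P3 were both compared with the same Fed arrays. The question was how muscle transcripts differ between the fed state and each phase of the fast.

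As background, insulin and insulin-like growth factor act through their receptors and PI3K to activate AKT at the membrane. Active AKT phosphorylates FOXO factors, which holds them out of the nucleus, and phosphorylates glycogen synthase kinase 3, which releases glycogen synthase. When the hormones fall, FOXO factors enter the nucleus of muscle fibres and turn on genes of ubiquitin ligases and autophagy, so that FOXO activity is governed largely by phosphorylation, which an array of transcripts does not measure.

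Foxo1, Foxo3 and Pik3r1 transcripts rose in P2 and rose again in P3, whereas Akt1 and Akt2 transcripts were lower in P3 than in the fed state. Foxo4 did not pass the test in any comparison. Values are log2 intensities, so that a difference of 1 is a doubling, and a gene is said to have changed when its limma adjusted p was under 0.05. In P2 versus Fed, 4 of the 7 members passed, 3 higher and 1 lower, where 9.28% of all probe sets passed, 5.13% higher and 4.15% lower. That share of all probe sets fell to 5.38% without Fed rat 2, 5.57% without P2 rat 3 and 5.86% without Fed rat 3. It rose to 11.5% without P2 rat 1, whose array had the lowest weight (0.381) when arrays were weighted. In P3 versus Fed, 6 of 7 passed, 4 higher and 2 lower, against 29.2% of all probe sets, 15.8% higher and 13.4% lower. In P3 versus P2, 3 of 7 passed, all higher, against 16% of all probe sets, 8.5% higher and 7.52% lower. Among the 14506 genes with 1 symbol, as the members are, the shares were larger. They were 12.6% in P2 versus Fed, 35.3% in P3 versus Fed and 21.8% in P3 versus P2.

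Promoter sequences of 2 risen members, Foxo1 and Pik3r1, and of Trim63 are given because these genes rose together over the 9 rats and because Trim63, a muscle ubiquitin ligase that FOXO factors activate, is among the genes nearest in profile to both Foxo1 and Foxo3. They are the 250 bases before the transcription start in RefSeq's annotation of the rat build GRCr8, written on the gene's own strand. Foxo1 lies at chr2:138462724-138462973 on the plus strand, Pik3r1 at chr2:34697661-34697910 on the minus strand, and Trim63 at chr5:151816986-151817235 on the plus strand. Capitals mark the element GTAAACA, bound by the FOXO family, which in Trim63 is read from the other strand as TGTTTAC.
Foxo1: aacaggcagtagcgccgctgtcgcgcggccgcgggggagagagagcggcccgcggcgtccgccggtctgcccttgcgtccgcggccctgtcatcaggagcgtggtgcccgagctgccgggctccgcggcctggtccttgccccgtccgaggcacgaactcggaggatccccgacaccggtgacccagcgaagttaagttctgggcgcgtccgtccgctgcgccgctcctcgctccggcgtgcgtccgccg
Pik3r1: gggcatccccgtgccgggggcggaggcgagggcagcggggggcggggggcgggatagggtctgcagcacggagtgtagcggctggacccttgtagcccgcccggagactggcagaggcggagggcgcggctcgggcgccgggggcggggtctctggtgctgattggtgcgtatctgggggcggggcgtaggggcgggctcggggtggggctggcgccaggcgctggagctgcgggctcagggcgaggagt
Trim63: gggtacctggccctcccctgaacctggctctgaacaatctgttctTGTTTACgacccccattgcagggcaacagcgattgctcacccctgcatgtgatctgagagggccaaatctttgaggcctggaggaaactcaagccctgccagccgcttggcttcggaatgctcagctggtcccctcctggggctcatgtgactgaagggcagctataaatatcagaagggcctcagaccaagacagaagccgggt
The Foxo1 window has a GC content of 74.4% and the Pik3r1 window 77.2%, above those of 96% and 97.7% of all 27457 promoter windows, whose median was 52%. They hold 40 and 27 CpG dinucleotides, where the median was 6. The Trim63 window has 56.8% GC and 5 CpG. GTAAACA was searched on both strands and was present in 892 of the 27457 windows (3.25%), in 1 of 7 member windows (Pik3ca, starting 157 bases before the start) and in 2 of 34 windows of the FOXO target genes listed later (5.88%). Those 2 were Trim63, 205 bases before the start, and Bcl2l11, 204 bases before it. A match is a description of letters, and these windows hold only the bases nearest the start.

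Foxo1, the forkhead factor that ties hormone loss to lipid use and protein breakdown in muscle, rose at both steps of the fast. Its log2 intensity was 7.73, 8.02 and 7.92 in the 3 Fed rats, 9.32, 9.93 and 9.61 in the 3 P2 rats, and 10.72, 10.66 and 10.80 in the 3 P3 rats. Every P2 rat lay above every Fed rat and below every P3 rat, and the P2 rats were spread most widely. The level was 1.73 ± 0.15 (SE) higher in P2 than in Fed, a 3.31-fold rise (limma adjusted p = 0.000284), and 2.83 ± 0.15 higher in P3, a 7.13-fold rise (adjusted p = 1.69e-06). P3 exceeded P2 by 1.11 ± 0.15 (adjusted p = 0.000895), or 2.15-fold. Foxo1 lay above 99.8% of all probe sets by its change in P2 and by its change in P3.

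Foxo3, the factor best known for driving autophagy and atrophy genes, gave the same order. Its log2 intensity was 7.41, 7.40 and 7.38 in Fed, 8.48, 9.01 and 8.71 in P2, and 9.86, 9.80 and 9.73 in P3. The Fed rats were nearly identical and no group overlapped another. It rose by 1.34 ± 0.12 in P2, or 2.52-fold (limma adjusted p = 0.000397), by 2.40 ± 0.12 in P3, or 5.28-fold (adjusted p = 1.51e-06), and P3 exceeded P2 by 1.06 ± 0.12 (adjusted p = 0.000398). Its change exceeded that of 99.6% of all probe sets in each phase against Fed.

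Foxo4, the third FOXO factor measured, did not follow them. In log2 intensity it measured 9.50, 9.51 and 9.51 in Fed, 9.76, 9.20 and 9.83 in P2, and 9.36, 9.87 and 9.39 in P3. The fasted rats scattered on both sides of the tight Fed values, with P2 rat 2 lowest and P3 rat 2 highest of all 9. The difference was 0.08 in P2 (limma adjusted p = 0.85, 95% interval -0.33 to 0.50) and 0.03 in P3 (adjusted p = 0.926, interval -0.38 to 0.45). These intervals include changes of either sign, and they do not show that Foxo4 was constant. They end well below the differences of Foxo1 and Foxo3 in the same arrays.

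Pik3r1, which codes the regulatory p85 alpha subunit that docks PI3K on receptor substrates, was the third member to rise at both steps. Log2 intensities were 9.03, 8.80 and 8.85 in Fed, 10.05, 10.60 and 10.03 in P2, and 11.09, 10.95 and 10.95 in P3. The groups were again fully apart. The rise was 1.34 ± 0.15 in P2, or 2.52-fold (limma adjusted p = 0.000989), 2.10 ± 0.15 in P3, or 4.3-fold (adjusted p = 9.66e-06), and 0.77 ± 0.15 between P2 and P3 (adjusted p = 0.00707). An order of Fed below P2 below P3 with no overlap, as in Foxo1, Foxo3 and Pik3r1, was found in 1532 probe sets, or 5.24% of all.

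**Figure D1:**
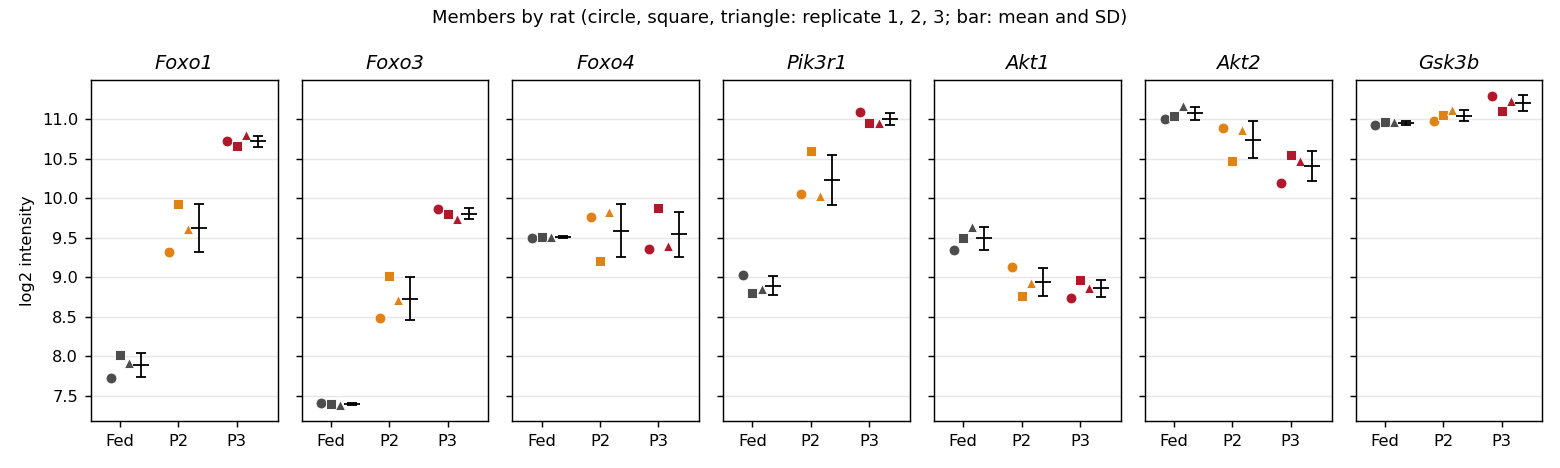
Log2 intensity (y axis) of the 7 members in each rat (symbols), by group, with the group mean and SD as a bar beside the 3 rats. Foxo1, Foxo3 and Pik3r1 stepped up from Fed to P2 to P3 without overlap, Akt1 and Akt2 lay lower in P3 than in Fed, and Foxo4 scattered around its Fed mean of 9.51.

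Akt1, the broadly expressed AKT kinase, was lower in both phases. Its log2 intensity was 9.34, 9.49 and 9.64 in Fed, 9.13, 8.76 and 8.93 in P2, and 8.74, 8.96 and 8.87 in P3. All fasted rats lay below all Fed rats, and P2 and P3 overlapped. Akt1 differed by -0.54 ± 0.12 in P2, or 0.685-fold (limma adjusted p = 0.0207), by -0.63 ± 0.12 in P3, or 0.646-fold (adjusted p = 0.00291), and by -0.09 between the phases (adjusted p = 0.738, 95% interval -0.35 to 0.18). The P2 call was lost when Fed rat 2 (adjusted p = 0.0696), Fed rat 3 (0.0735), P2 rat 2 (0.0609) or P2 rat 3 (0.0698) was left out of the limma fit, with the difference between -0.64 and -0.46.

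Akt2, the AKT kinase that carries most of insulin's effect on glucose uptake in muscle, was lower in P3. Its log2 intensity was 11.00, 11.04 and 11.16 in Fed, 10.89, 10.47 and 10.86 in P2, and 10.19, 10.54 and 10.47 in P3. P2 rats lay below the Fed rats without overlap, and P2 rat 2 fell among the P3 rats. The fall in P3 was -0.67 ± 0.13, or 0.629-fold (limma adjusted p = 0.00426). The P2 difference of -0.33 ± 0.13 (adjusted p = 0.184, 95% interval -0.63 to -0.03) and the difference of P3 from P2 of -0.34 ± 0.13 (adjusted p = 0.134, interval -0.64 to -0.04) did not pass. Without P2 rat 2 the latter was -0.48 with a limma adjusted p of 0.0262.

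Gsk3b, the kinase that restrains glycogen synthase until AKT phosphorylates it, shifted least among the members that passed. The log2 intensity measured 10.93, 10.96 and 10.96 in Fed, 10.97, 11.05 and 11.11 in P2, and 11.29, 11.10 and 11.23 in P3. The P3 rats lay above the Fed rats, and P2 and P3 overlapped. It rose by 0.25 ± 0.07 in P3, or 1.19-fold (limma adjusted p = 0.0287), and its moderated F test over the 3 groups did not pass (adjusted p = 0.0726). The difference in P2 was 0.09 (adjusted p = 0.543, 95% interval -0.07 to 0.25). The P3 call was lost without Fed rat 1 (0.0761), Fed rat 2 (0.067), Fed rat 3 (0.0641), P3 rat 1 (0.0967) or P3 rat 3 (0.083), all limma adjusted p, and after a further quantile normalization, which gave 0.17 (adjusted p = 0.163).

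Groups without overlap were common in these arrays. In P2, 13.3% of all probe sets lay wholly above Fed and 10.9% wholly below, and in P3 the shares were 22.3% and 20.1%. Among the members, Foxo1, Foxo3, Pik3r1 and Gsk3b lay wholly above Fed in each phase and Akt1 and Akt2 wholly below. The rises of Foxo1, Foxo3 and Pik3r1 passed in all 3 comparisons in each of the 9 fits that left out 1 rat, as did the P3 falls of Akt1 and Akt2 against Fed.

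**Figure D2:**
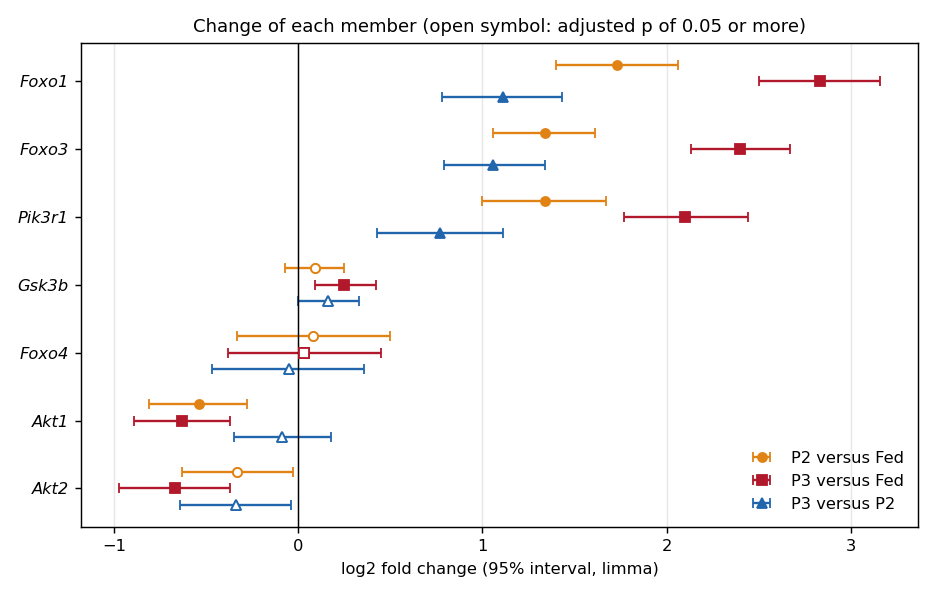
Log2 fold change (x axis) of each member with its 95% interval from limma, for each fasting phase against Fed and for P3 against P2. Filled symbols have an adjusted p under 0.05. Foxo1, Foxo3 and Pik3r1 are filled in all 3 comparisons, Foxo4 in none.

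By P2, Foxo1 had reached 61% of its P3 change, Foxo3 55.6%, Pik3r1 63.4%, Akt2 48.9% and Akt1 86.5%. These are ratios of mean log2 differences, and shares of linear intensity would differ. Foxo1, for instance, stood at 3.31-fold of Fed in P2 and 7.13-fold in P3. Whether the second step differed in size from the first was tested directly on the log2 scale, as (P3 minus P2) minus (P2 minus Fed). By limma 0 of 7 members passed, against 2.56% of all probe sets. Only 2 of 7, Foxo1 and Akt1, had an unadjusted p under 0.05. For Foxo1 the second step was 0.62 ± 0.25 smaller, written as -0.62 (adjusted p = 0.314, 95% interval -1.19 to -0.05). The corresponding values were -0.27 ± 0.21 for Foxo3 (adjusted p = 0.676) and -0.57 ± 0.26 for Pik3r1 (adjusted p = 0.386). For Akt1 the value was 0.46 ± 0.2 (adjusted p = 0.363), where the positive sign marks a smaller second fall.

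P2 rat 2 stood at an edge of its group for 6 of the members. It had the highest Foxo1, Foxo3 and Pik3r1 of P2 and the lowest Foxo4, Akt1 and Akt2. Without it the P2 rise was 1.57 for Foxo1, 1.20 for Foxo3 and 1.15 for Pik3r1 (limma adjusted p = 0.000576, 0.000536 and 0.000744).

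Related members were then set against each other within each array, which cancels whatever an array shares. The difference was referred to its Fed mean, and an exact permutation F test over all 280 divisions of the 9 arrays into 3 groups was run for 4 pairs, with adjustment over the 4 and a smallest possible p of 0.00357. Foxo1 minus Foxo4 rose by 1.65 in P2 and 2.80 in P3 (exact p = 0.00357, adjusted p = 0.00714). Foxo3 minus Foxo4 rose by 1.25 and 2.37 (exact p = 0.00357, adjusted p = 0.00714). Both are at the smallest p this design allows, and in both pairs the Fed rats lay apart from P2 and from P3.

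Foxo1 minus Foxo3 rose by 0.39 in P2 and 0.43 in P3 (exact p = 0.0286, adjusted p = 0.0286). The rats of both phases lay above those of Fed, and the difference between the phases was 0.04, against within-group SDs of 0.04 to 0.15. Akt1 minus Akt2 was -0.22 in P2 and 0.04 in P3 (exact p = 0.025, adjusted p = 0.0286). The P2 rats lay below the Fed rats without overlap, and the P3 rats overlapped those of Fed.

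**Figure D3:**
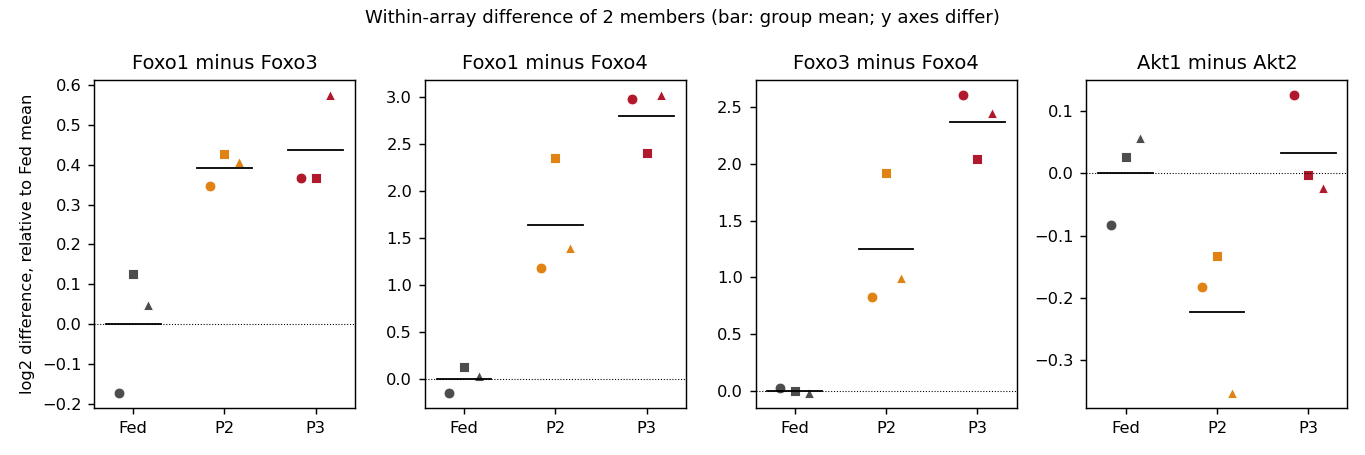
Within-array difference of log2 intensity between 2 members, relative to its mean in Fed (y axis, scaled separately in each panel), in each rat by group, with the group mean as a bar. Foxo1 and Foxo3 pull away from Foxo4 in P2 and further in P3, Foxo1 gains on Foxo3 by P2 and differs little between P2 and P3, and Akt1 drops against Akt2 in P2.

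The genes nearest to each member in profile were ranked by the root mean square difference over the 9 arrays, each gene centred on its own mean, among 8179 genes with a mean log2 intensity of at least 6. Foxo1 was nearest to Il6r, a chain of the interleukin-6 receptor, at 0.12, then to Trim63 at 0.15 and to Arrdc3, an arrestin domain protein, at 0.16. Foxo3 was nearest to Bach1, a heme-responsive repressor, at 0.10, then to Map1b, a microtubule protein, and Trim63, both at 0.12. Pik3r1 was nearest to Fibin at 0.09, to Nfkbia, the inhibitor of NF-kappa B, at 0.13, and to Foxo3 itself at 0.17. Akt1 was nearest to Mrps24, a mitochondrial ribosomal protein, at 0.07, and to Uqcc2, an assembly factor of respiratory complex III, and Nacc1, both at 0.08. Akt2 was nearest to Mmgt1 at 0.05, and to Cep15 and Pabpc4, a poly(A)-binding protein, at 0.07. These distances are descriptions over arrays that include the group differences.

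The rest of the pathway was described by 8 lists of 171 genes, of which 148 have a single-symbol probe set; Irs2 and Foxo6 are among the rest and were not analysed here. Of the 148, 40 were higher and 12 lower in P2 versus Fed (35.1% passed), where 12.6% of all genes passed, 7.07% higher and 5.57% lower. The count of lower pathway genes in P2 fell to 7 without Fed rat 1 or Fed rat 2 and to 6 without Fed rat 3. In P3 versus Fed, 65 were higher and 27 lower (62.2%), where 35.3% of all genes passed, 18.2% higher and 17.1% lower. In P3 versus P2, 46 were higher and 18 lower (43.2%), against 21.8% of all genes, with 11.4% higher and 10.4% lower. The median change over all genes was 0.005 in P2 and -0.015 in P3.

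Of the receptors and adaptors upstream of PI3K, 11 were measured, and 5 were higher and 5 lower in P3, with a median change of 0.03. The shares of all genes were 18.2% higher and 17.1% lower in P3, and 7.07% and 5.57% in P2. The receptors rose. Igf1r, the receptor of insulin-like growth factor, rose by 0.86 ± 0.11 in P2 and 2.93 ± 0.11 in P3, or 7.6-fold (limma adjusted p = 3.73e-07), and its second step was the larger, by 1.20 ± 0.19 (adjusted p = 0.0118). Insr, the insulin receptor, rose by 0.75 ± 0.09 and 1.38 ± 0.09 (P3 limma adjusted p = 7.05e-06). The docking protein Gab1 rose by 0.95 in P3, the tyrosine phosphatase Ptpn1 by 0.73 and the adaptor Shc1 by 0.60. Grb10 and Grb14, adaptors that inhibit the insulin receptor, differed by -1.76 and -1.32 in P3, Sh2b2 by -1.60, the insulin receptor substrate Irs1 by -0.94 and Grb2 by -0.31, and all 5 passed. The Grb2 call was lost in 5 of the 9 fits that left out 1 rat. In P2, 2 of the 11 were higher and 4 lower, and the latter count fell to 1 without Fed rat 2, Fed rat 3 or P2 rat 2 and to 2 without Fed rat 1, P2 rat 3 or P3 rat 3.

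Among 12 other PI3K subunits and partners, 4 were higher and 4 lower in P3, with a median of 0.05. For all genes these shares were 18.2% and 17.1% in P3, and 7.07% and 5.57% in P2. Pik3ip1, an inhibitor of the PI3K catalytic subunit, rose by 0.91 ± 0.08 in P2 and 1.24 ± 0.08 in P3 (P3 limma adjusted p = 5.69e-06). The class II enzyme Pik3c2a rose by 1.21 in P3, the class III enzyme Pik3c3, which serves autophagy, by 1.05, and the catalytic beta subunit Pik3cb by 0.43. The adaptor Pik3ap1 differed by -2.20 ± 0.14 in P3 (limma adjusted p = 4.77e-06) and by -0.05 in P2 (adjusted p = 0.871). The catalytic delta subunit Pik3cd, known mainly from leukocytes, differed by -1.11 in P3, Pik3c2b by -1.10 and the regulatory subunit Pik3r3 by -0.75. The direction of Pik3r1 was therefore not shared by Pik3r3. Leaving out 1 rat lost the P3 call of Pik3cb in 5 of 9 fits and of Pik3r3 in 2. In P2, 2 of the 12 were higher, Pik3ip1 and Pik3c3, and 1 lower, Pik3cd, and Pik3c3 was lost without Fed rat 1, Fed rat 3, P2 rat 2 or P2 rat 3.

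Of 14 lipid phosphatases and other brakes on AKT, 6 were higher and 4 lower in P3, with a median of 0.26. All genes together had 18.2% higher and 17.1% lower in P3, and 7.07% and 5.57% in P2. Inpp4a, a phosphatase of PI(3,4)P2, rose by 1.60 ± 0.09 (limma adjusted p = 2.24e-06), whereas its relative Inpp4b differed by -1.38 ± 0.16 (adjusted p = 0.000202). Inpp5k, a lipid phosphatase of muscle, rose by 0.81, and Phlpp1, which dephosphorylates AKT, by 0.61. Inppl1 (SHIP2) differed by -1.60, the pseudokinase Trib2 by -1.52 and the phosphatase subunit Ppp2cb by -0.28, the last losing its call in 7 of 9 fits without 1 rat. In P2, 2 of the 14 were higher and 3 lower, the former falling to 1 without P2 rat 2 and the latter to 1 without Fed rat 1 or Fed rat 3. Of 9 activators of AKT, 3 were higher in P3, namely Pdpk1, the kinase of the AKT activation loop, by 0.74 ± 0.08 (limma adjusted p = 0.000152), the chaperone Hsp90ab1 by 0.41 and Mtor by 0.31. The mTOR complex subunits Mlst8 and Prr5 differed by -0.44 and -0.41 and passed. The Mtor call was lost in 4 of the 9 fits.

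Downstream of AKT, 5 of 15 substrates and their partners were higher in P3, and 0 passed as lower by limma, with 2 lower at an unadjusted p under 0.05. Pikfyve, a lipid kinase of endosomes, rose by 1.23, Tsc1, a brake on mTOR complex 1, by 0.97 and Chuk, a kinase of the NF-kappa B pathway, by 0.80. Tsc1 is the partner of the AKT substrate Tsc2, which differed by -0.23 (limma adjusted p = 0.12). Hk2, hexokinase of muscle, rose by 0.64 and the mTOR complex subunit Akt1s1 by 0.55, and these calls were lost in 6 and 4 of the 9 fits that left out 1 rat. The list's count of higher genes fell to 3 without Fed rat 1, Fed rat 2 or Fed rat 3, and 1 was lower without P3 rat 2. The median of the list was 0.05, and 18.2% of all genes were higher in P3.

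Of 13 partners and substrates of glycogen synthase kinase 3, 6 were higher and 1 lower in P3, with a median of 0.27. By comparison, 18.2% of all genes were higher and 17.1% lower in P3, and 7.07% and 5.57% in P2. Myc, a growth factor-responsive transcription factor whose protein this kinase marks for breakdown, rose by 1.52 ± 0.13 in P2 and 3.21 ± 0.13 in P3 (P3 limma adjusted p = 4.21e-07). The survival factor Mcl1 rose by 0.77 and 1.51, and Jun by 0.71 and 0.98. The gene that was lower was Gys1, the muscle glycogen synthase, at -2.04 ± 0.17 in P3 (limma adjusted p = 2.45e-05) and -0.50 in P2 (adjusted p = 0.117). In P2, 3 of the 13 were higher, and 0 passed as lower by limma, with 1 lower at an unadjusted p under 0.05.

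Of 34 regulators of FOXO factors, 11 were higher and 7 lower in P3, with a median of 0.20. Shares over all genes were 18.2% higher and 17.1% lower in P3, and 7.07% and 5.57% in P2. Klf15, a glucocorticoid-induced factor of muscle, rose by 1.79 ± 0.18 in P2 and 3.51 ± 0.18 in P3 (P3 limma adjusted p = 1.6e-06). The kinase Sgk1, which phosphorylates FOXO factors at the same sites as AKT, rose by 1.16 in P3, and Dyrk1a, a kinase of Foxo1, by 0.99. Ppargc1a, a coactivator of mitochondrial genes and partner of Foxo1, differed by -1.91, Xpo1, the nuclear exporter that carries FOXO proteins, by -1.78, and the methyltransferase Setd7 by -0.92, all of which passed. The Setd7 call was lost without Fed rat 1. In P2, 4 of the 34 were higher and 2 lower, the latter being Xpo1 and Ywhag, and the Xpo1 call was lost without Fed rat 1, Fed rat 2 or Fed rat 3.

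**Figure D4:**
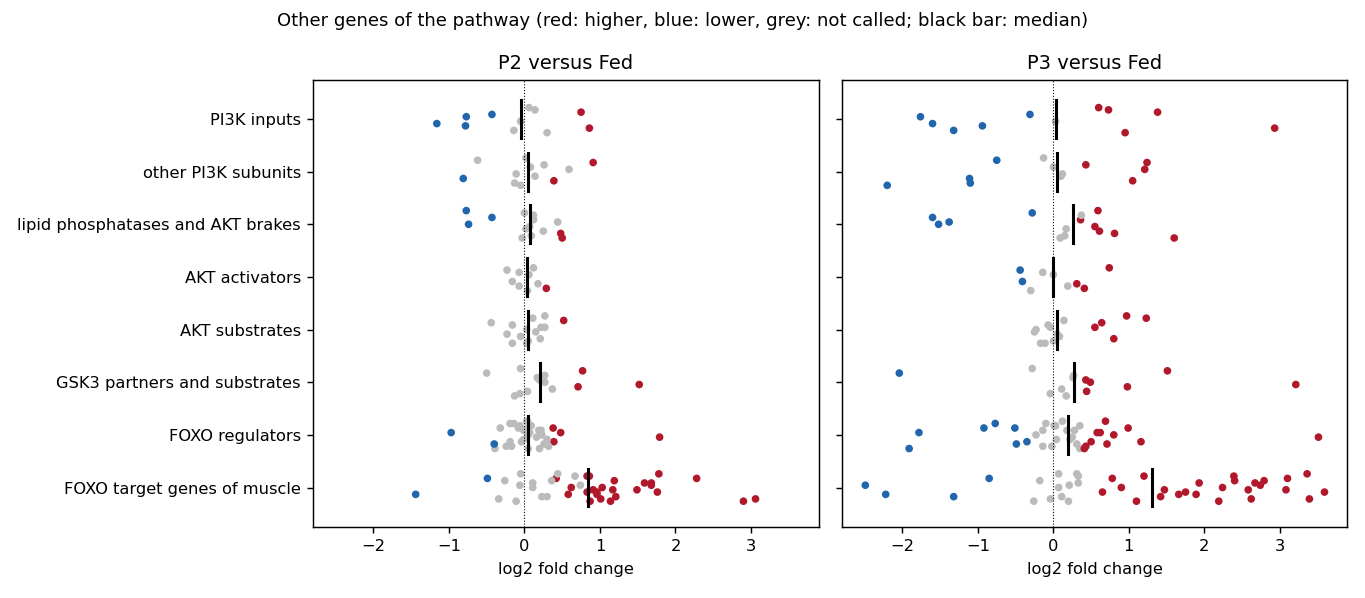
Log2 fold change (x axis) of the 148 other pathway genes, by list (y axis), in P2 and in P3 versus Fed; red genes were higher and blue lower at an adjusted p under 0.05, grey genes did not pass, and the black bar is the list's median. Most lists center near 0 with genes on both sides, whereas the FOXO target genes of muscle have medians of 0.85 in P2 and 1.31 in P3. The lists were chosen with earlier results of these data known, so the contrast is a description.

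The FOXO target genes of muscle are known atrophy, autophagy, stress and fuel genes. The list was made with earlier results of these data known. The study had already reported several of its genes, such as Fbxo32, Trim63, Gabarapl1 and Ulk1, as raised in these arrays. The contrast of the list with all genes or with other lists is therefore a description and not a test. Of 41 named, 40 were measured. In P2, 25 were higher and 2 lower, with a median change of 0.85, where 7.07% of all genes were higher and 5.57% lower. In P3, 25 were higher and 4 lower, with a median of 1.31, where 18.2% of all genes were higher and 17.1% lower. From P2 to P3, 19 rose and 5 fell, against 11.4% and 10.4% of all genes. Leaving out 1 rat at a time gave 23 to 26 higher in P2 and 25 to 26 in P3.

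Among the ubiquitin ligase genes of the list, Fbxo32 (atrogin-1) rose by 2.28 ± 0.14 in P2 and 3.10 ± 0.14 in P3 (P3 limma adjusted p = 9.65e-07), and Trim63 (MuRF1) by 1.49 ± 0.13 and 2.58 ± 0.13 (adjusted p = 1.39e-06). Trim63 is also 1 of the 2 genes of the list whose window upstream of the start holds the FOXO element. The other, Bcl2l11, passed in no comparison. The windows of Gabarapl1, Map1lc3b, Ulk1, Pdk4, Depp1 and Cdkn1a, which rose, hold none. Whether the element goes with the changes was not tested. Fbxo30 differed by 0.36 in P2 (adjusted p = 0.374) and rose by 2.40 in P3. Fbxo31 rose by 0.96 and 1.89, and Fbxo21 passed in neither phase (0.30 and 0.11, adjusted p = 0.058 and 0.357).

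Among autophagy and stress genes, Gabarapl1, an autophagosome protein, rose by 1.76 ± 0.11 in P2 and 3.59 ± 0.11 in P3 (P3 limma adjusted p = 1.78e-07), Map1lc3b by 0.87 and 2.19, and the initiating kinase Ulk1 by 1.03 and 2.24. Depp1, a FOXO-induced regulator of autophagy, rose by 3.39 ± 0.26 in P3, and its P2 rise of 1.01 was lost as a call in 7 of the 9 fits without 1 rat. Cdkn1a (p21), a cell cycle inhibitor, rose by 1.78 ± 0.31 and 3.36 ± 0.31. The autophagy genes Ulk2 (-0.11 and -0.26), Atg4b (-0.34 and -0.04), Atg12 (-0.06 and 0.21) and Becn1 (-0.26 and -0.18) passed in neither phase.

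Among the fuel genes, Pdk4, which blocks pyruvate oxidation, rose by 3.06 ± 0.18 in P2 and 2.62 ± 0.18 in P3, and the phases differed by -0.43 (limma adjusted p = 0.157). Angptl4, an inhibitor of lipoprotein lipase, rose by 2.90 ± 0.18 in P2 (adjusted p = 8.17e-05) and differed from Fed by 0.20 in P3 (adjusted p = 0.479), a P3 minus P2 difference of -2.70 (adjusted p = 2.82e-05). The triglyceride lipase Pnpla2 rose by 1.68 and 1.93. The fatty acid carrier Cd36 rose by 0.91 and 1.47 and was higher in P3 than in P2 by 0.56 (limma adjusted p = 0.0293). That difference of Cd36 between the phases passed in only 4 of the 9 fits that left out 1 rat. Lpl, lipoprotein lipase, passed in neither phase (0.11 and 0.07, adjusted p = 0.877 and 0.884).

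The 4 targets that were lower in P3 were Mstn (myostatin, a brake on muscle growth) at -2.49 ± 0.43, Sesn3 at -2.22 ± 0.15, the repressor Bcl6 at -1.32 ± 0.17 and Sod2, the mitochondrial superoxide dismutase, at -0.85 ± 0.07 (limma adjusted p = 0.00192, 6.92e-06, 0.000347 and 2.4e-05). Sesn3 and Sod2 were the 2 that were already lower in P2, at -1.44 and -0.49. Sesn1, of the same stress protein family as Sesn3, rose by 1.19 in P2 and 2.79 in P3. The other 11 measured targets did not pass in P3.

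**Figure D5:**
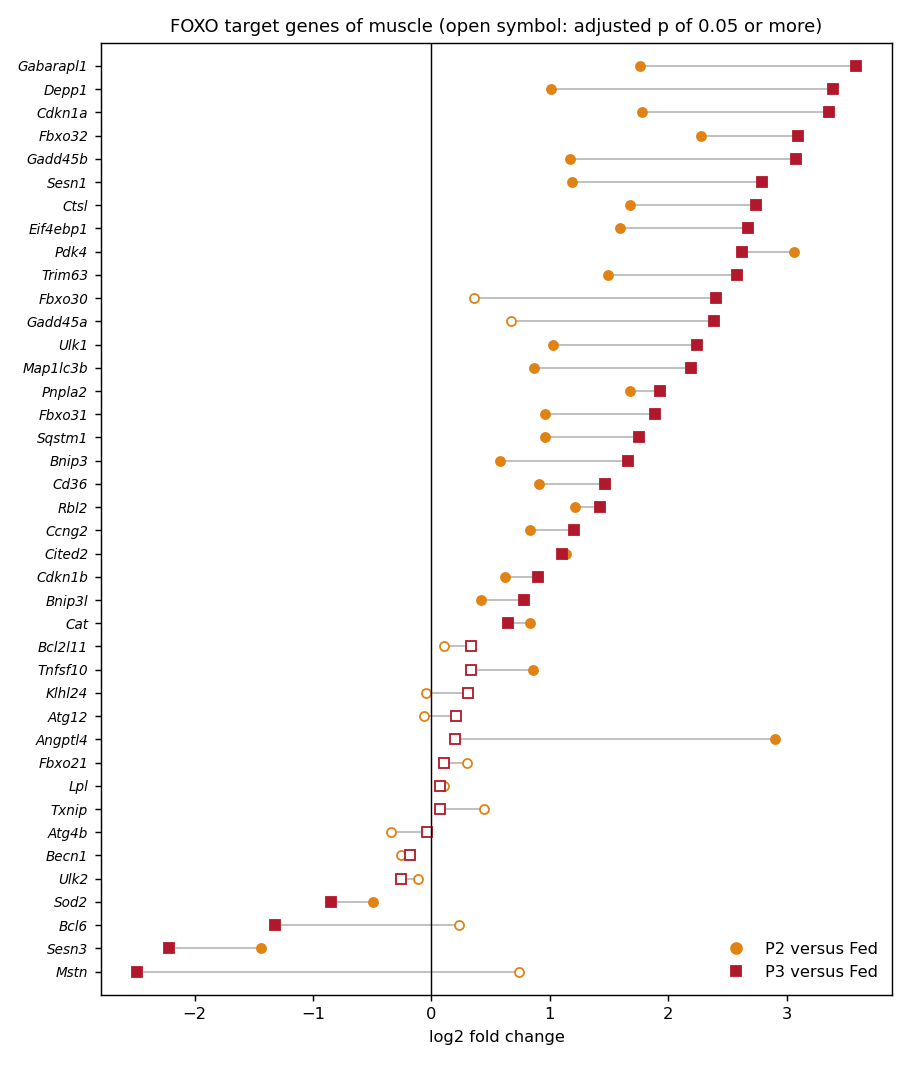
Log2 fold change (x axis) of the 40 measured FOXO target genes of muscle (y axis, ordered by P3) in P2 (circles) and P3 (squares) versus Fed, open where the adjusted p was 0.05 or more. Most squares lie to the right of their circles, from Gabarapl1 at 3.59 down; Angptl4 drops from 2.90 to 0.20, and Mstn, Sesn3, Bcl6 and Sod2 lie below 0 in P3.

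The tissue label was checked against marker genes. All 12 fast fibre markers lay between the 99.1 and 100 percentiles of level on these arrays, and the heart markers Myh6, Nppa and Nppb between 33.9 and 60.6. Array medians ran from 5.80 to 5.90, and each of the 9 arrays correlated best with its own group. In whole muscle, fewer cells of a type and less RNA per cell cannot be told apart. Several marker lists moved with the groups beside the member values. Over all genes, 7.07% were higher and 5.57% lower in P2, and 18.2% higher and 17.1% lower in P3. Fibro-adipogenic markers were lower in P3 in 7 of 9, with a summed log2 level of 13.92 to 14.08 in Fed, 12.72 to 13.62 in P2 and 12.12 to 12.76 in P3. Slow fibre markers were lower in P2 in 2 of 5 and in P3 in 4 of 5. Their sums were 12.71 to 13.06 in Fed, 11.83 to 12.52 in P2 and 11.65 to 12.32 in P3. Smooth muscle and pericyte markers were lower in P3 in 4 of 6 (12.61 to 12.85 in Fed, 11.81 to 12.28 in P3), satellite cell markers in 2 of 4 (8.57 to 8.62, 7.98 to 8.07) and fast fibre markers in 3 of 12 (17.05 to 17.07, 16.80 to 16.85). The sums of these lists in P2 were 12.32 to 12.73, 8.53 to 8.89 and 16.97 to 17, with the fast fibre sums already below Fed. Adipocyte markers were higher in P2 in 3 of 8, with sums of 10.16 to 10.27 in Fed, 10.87 to 11.03 in P2 and 9.75 to 10.09 in P3. Macrophage markers overlapped between groups (10.10 to 10.83 in Fed, 10.15 to 10.91 in P3), with 1 of 10 higher in P3. Their part in the results was not tested.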

How the data were processed

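RNA from the tibialis anterior of 9 rats was hybridised to Affymetrix Rat Gene 1.0 ST arrays, 1 per rat, and the labels put 3 rats in each of Fed, P2 and P3. The deposited values are log2 intensities, which the authors made with RMA in Affymetrix Expression Console 1.1, normalised between arrays. RMA pulls array distributions together, so changes are relative to the other probe sets, and the number of arrays limits the precision. Of 29215 probe sets, 15310 have 1 symbol in the platform annotation, 323 several and 13582 none, and only the first were named. Of several probe sets for a gene, the brightest on average was used.

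A model of group means over all 9 arrays was fitted with limma 3.58.1 (R 4.3.3) and moderated with eBayes (2.87 prior degrees of freedom). P-values were adjusted over all 29215 probe sets by the Benjamini-Hochberg method, with calls at an adjusted p under 0.05. The script was tested on simulated data. Pairs of members were compared by exact permutation. Intervals are 95%. Figures used Python 3.11.15 and matplotlib 3.10.9, and promoters came from RefSeq's GRCr8 table, with no entry used for Foxo3.

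The members and lists were chosen with earlier results of these data known. Values are given for all members, for the 3 genes of each list with the largest rise and fall among P3 calls, for lists with 5 or fewer calls, and for the 3 genes nearest in profile; further target genes (all FOXO targets named outside that rule) were chosen after their values were seen. Alternatives were another quantile normalization, median centring, a minimum mean of 5, single-symbol probe sets alone, trended moderation, array weights, only the compared groups, a replicate block, the methods' ANOVA with Tukey tests, thresholds of 0.01 or 1.5-fold, and leaving out each array.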

Additional observations from a re-analysis of the deposited data

Results flagged for a closer look

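Foxo1, Foxo3 and Pik3r1 responded to fasting by different amounts in the 2 phases, by a direct test of the difference between the phases. The effect in P3 exceeded the effect in P2, both against the same Fed rats, by 1.11 on the log2 scale for Foxo1 (limma adjusted p = 0.000895), by 1.06 for Foxo3 (0.000398) and by 0.77 for Pik3r1 (0.00707). Each was higher in 3 of 3 P3 rats than in any P2 rat, as were 13.8% of all probe sets. For Akt1, Akt2, Gsk3b and Foxo4 the same difference did not pass.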

How the results depend on the processing

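Over all alternatives, 568 values kept their side of the threshold, 25 lost a call, 2 gained one and 0 passing values reversed. Values that did not pass could change sign within the 568. Foxo4 in P2, for instance, ranged from -0.03 to 0.28 over the fits that left out 1 rat. Under the ANOVA and Tukey test of the methods at p under 0.001, 3 members in place of 6 passed in P3 versus Fed and 1 in place of 3 in P3 versus P2. At an adjusted p under 0.01, 5 pathway genes in place of 12 were lower in P2. Leaving out 1 array gave 6 to 12 lower pathway genes in P2. Akt1 in P2 had limma adjusted p = 0.0524 when only Fed and P2 arrays were fitted, and it and Gsk3b in P3 also missed a 1.5-fold minimum and the 0.01 threshold. With Benjamini-Hochberg on the ANOVA, Akt2 and Gsk3b in P3 were lost. A further quantile normalization passed Akt2 in P3 versus P2 (-0.41, adjusted p = 0.0391).

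Leaving out 1 array gave 3 to 4 members called in P2, 5 to 6 in P3, 3 to 4 in P3 versus P2 and 0 for the second step against the first. The within-array differences in P3 ranged from 0.35 to 0.50 for Foxo1 minus Foxo3, 2.69 to 3.00 for Foxo1 minus Foxo4, 2.24 to 2.54 for Foxo3 minus Foxo4 and -0.01 to 0.07 for Akt1 minus Akt2. The replicate numbers are shared by the groups but did not pair rats (r of deviations -0.243 to 0.123; the own number correlated best in 6 of 18 cases). With the replicate number as a block, members called were 3 in P2, 5 in P3, 3 in P3 versus P2 and 0 for the second step, losing Akt1 in P2 (adjusted p = 0.0546) and Gsk3b in P3 (0.0617), and probe sets called in P2 went from 2711 to 1983. The mean of all probe sets equals the value used, as each member has 1. Pik3r1 minus Pik3ca was not run.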
